A study of Mus musculus with 9 samples.

Results

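Long introns that stay in part of the polyadenylated RNA of control cells were examined in N2A cells, a mouse neuroblastoma line. An intron was included if it was at least 500 nt long and had a filtered value in all conditions of its experiment. Its percent spliced in (PSI) also had to be 10 or more in the control of that experiment. PSI estimates the percentage of transcripts that keep the intron, from reads over its borders and reads joining the exons beside it. Reads joined to an exon inside the intron enter neither count, so there PSI is not a share of all transcripts. Control 1 selected 4031 introns of 2604 genes and control 2 selected 1490 introns of 1191 genes, out of 60552 and 63534 long introns with a value. The selections shared 1004 introns, which is 24.9% of the introns chosen by control 1 and 67.4% of those chosen by control 2. Together they held 4517 introns, from tables of 283013 splicing events that list 158687 introns. Since the control level chose the introns, that level is a description. A knockdown is set against control 2 below only for introns that control 1 chose, and against control 1 only for introns that control 2 chose.

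All cells were transfected with siRNA pools and collected 48 hours later, per the labels. The first experiment had 1 library each for the knockdown of Mbnl1 together with Mbnl2, the knockdown of Nacc1, and a non-targeting pool (control 1). The second had 2 libraries each for Srrm4 knockdown, Zfp871 knockdown and a non-targeting pool (control 2), marked a and b. Nothing in the labels says that the replicates came from separate cultures, so p-values measure only the spread between these libraries. TriZol or a Qiagen kit was used to extract the RNA, and which of them served a given library is not recorded in these sources.

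An intron is removed from a transcript when the spliceosome joins the exons on either side of it. A transcript that keeps an intron is often held in the nucleus or, if exported with a premature stop codon, destroyed by nonsense-mediated decay. Retained introns are well known in genes for splicing regulators, among them the CLK kinases and the SR proteins. Srrm4 is a neuronal splicing regulator that promotes inclusion of very short exons, the MBNL proteins regulate alternative splicing during development, Nacc1 is a BTB-domain transcriptional regulator, and Zfp871 is a zinc finger protein.

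Splice sites of 7 of these introns are printed as examples of the set: the kinase gene Clk4, the SR protein gene Srsf7, the cyclin L gene Ccnl1, the splicing factor gene Rbm5, the deadenylase subunit gene Pan2, and the genes Map2k7 and Fbxl20, whose introns were kept in most transcripts. The letters come from GENCODE transcripts that keep the intron, so the positions are GRCm38, and the deposited coordinates given elsewhere are mm9. Each 5′ end shows 3 exon and 20 intron bases and each 3′ end shows 25 intron and 3 exon bases, 5′ to 3′, with the first and last 2 intron bases in capitals.
Clk4, chr11:51272023-51273077, plus strand, 5′ end: tcgGTatgagtggtttgttttta
Clk4, 3′ end: tggtgctgcccacttgccgttccAGaag
Srsf7, chr17:80204388-80205261, minus strand, 5′ end: cagGTatttaattaatgaaggaa
Srsf7, 3′ end: tgtatttttctaacttaaaaaatAGgtc
Ccnl1, chr3:65950545-65951433, minus strand, 5′ end: aagGTgagttgtaaagtacagac
Ccnl1, 3′ end: gttttcttttctcccttgtcctcAGatc
Rbm5, chr9:107756993-107759775, minus strand, 5′ end: cagGTtgcttcactcaccaagtc
Rbm5, 3′ end: aactaattgcttcttttttttacAGaaa
Pan2, chr10:128318343-128318944, plus strand, 5′ end: atgGTtcgggcagggcttatttc
Pan2, 3′ end: cttcttttcttctggtccctgctAGgtg
Map2k7, chr8:4245826-4247656, plus strand, 5′ end: cagGTagcctcatggcagcggcc
Map2k7, 3′ end: ttgtctactgccctctaatgttaAGtgg
Fbxl20, chr11:98095194-98096928, minus strand, 5′ end: tagGTaaacgttgtttatttagc
Fbxl20, 3′ end: tcttttcactttgttcttttaacAGaat

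Sequence could be read for 444 of the retained introns and for 1268 other long introns, in each case those that an annotated transcript keeps. GT and AG stood at the ends of 435 of the 444, GC and AG of 6, and AT and AC of 2. The 5′ site letters GTAAGT or GTGAGT were present at the start of 24.3% of the retained and 27.8% of the other introns. The median GC content was 48.4% (quartiles 42.8% and 53%) against 44% (38.9% and 49.2%). Pyrimidines made up a median of 75% of the last 20 bases before the final dinucleotide in both sets.

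The 5′ site letters ATATCCTT or GTATCCTT, which mark introns of the minor (U12-type) spliceosome, were searched for on the sense strand at the first 8 intron bases. They were present in 9 of the 444 retained introns (2.03%) and in 7 of the 1268 others (0.552%). The introns below were picked for these letters after their values were seen, and they are shown because the shared 5′ site can be read in them directly. The genes encode the stress kinase JNK1 (Mapk8), the GTPase Gpn1, the endoplasmic reticulum factor Derl2, the repressor E2f6 and the primase subunit Prim1.
Mapk8, chr14:33388983-33390672, minus strand, 5′ end: actGTatccttgtgctgctgcag
Mapk8, 3′ end: atttttcttagctacttgataatAGata
Gpn1, chr5:31497351-31498339, plus strand, 5′ end: gcaGTatccttttcctcatctgc
Gpn1, 3′ end: tttaaatccgtaactgaatgttcAGata
Derl2, chr11:71013639-71014549, minus strand, 5′ end: actGTatccttcaacaaatagca
Derl2, 3′ end: tatttcccttaatgccctttgctAGctc
E2f6, chr12:16820385-16822092, plus strand, 5′ end: aagATatccttccatcagtacct
E2f6, 3′ end: tgtcagatccttgaccaggtctcACact
Prim1, chr10:128022973-128023582, plus strand, 5′ end: agaATatcctttcctgcggttac
Prim1, 3′ end: accatgctccttaatgaagcatcACcaa
The PSI of the Mapk8 intron was 18.3, 19.7 and 24.1 in the Mbnl knockdown, the Nacc1 knockdown and control 1. It was 6.29 and 9.01 in control 2, 6.36 and 12.2 in the Srrm4 knockdown, and 7.76 and 5.16 in the Zfp871 knockdown. The Prim1 intron, counted over 700 or more reads in each library, ranged from 13 to 21.4 in the first experiment and from 0 to 6.02 in the second. It has no filtered value in control 2, so the values of the second experiment come from unfiltered reads.

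Total gene counts ran from 50086176 to 63715449 in the first experiment and from 44186088 to 61159670 in the second. The targeted genes were lower in their own libraries, in CPM (gene counts scaled to the library total and its TMM factor). Mbnl1 was at 45.2 against 124 in control 1 and 82.7 in the Nacc1 knockdown, Mbnl2 at 18.2 against 65.7, and Nacc1 at 52 against 208. Srrm4 was at 28.3 and 26 in its knockdown against 66.9 and 96.1 in control 2, and at 45.3 and 53.9 in the Zfp871 knockdown. Zfp871 was at 7.24 and 5.1 against 17.6 and 26.1. Of 16 neuroblast marker genes, 13 reached 1 CPM in all 9 libraries (summed levels 3184 to 4293), as did 2 of 8 glial markers (4.26 to 7.92), 1 of 6 epithelial markers (25 to 40.5), 0 of 8 mesenchymal markers (0.947 to 2.1) and 0 of 6 immune markers (0.281 to 1.57).

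1 library stood apart in the second experiment. In control 2 b, 4.82% of long introns with 10 or more reads had a PSI of 10 or more, against 3.16% in control 2 a and 2.75% to 3.4% in the knockdowns. Among the introns that control 1 chose, 77.8% of 3478 were higher in control 2 b than in control 2 a, by a median of 2.63 points. The difference of b minus a was 0.18 points in the Srrm4 and 0.58 points in the Zfp871 knockdown. Short retained introns were also higher there, with a median PSI of 11.1 against 7 to 8.33 in the other 5 libraries. The splicing table also lists a trimmed version of control 2 a, and of no other library, which was not used here. Control 2 values are therefore given per library, and medians and counts of calls against it also without library b.

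The retained introns were kept at different levels in the 2 experiments, whose tables were made separately. Among 958 introns that both controls chose and that had at least 10 reads in every library, the median PSI was 25.9, 26.3 and 26 in the Mbnl knockdown, the Nacc1 knockdown and control 1. It was 12.4 and 18 in control 2, 10.2 and 11 in the Srrm4 knockdown, and 10 and 11.1 in the Zfp871 knockdown. Both controls chose these introns by level, so no difference between a control and its knockdowns is read from these medians. All 3 libraries of the first experiment were above all 6 of the second for 489 of the 958 introns, and below all of them for 2. The 62079 other long introns had medians from 0.72 to 0.88 there, and from 0 to 0.18 in the libraries of the second experiment.

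**Figure D1:**
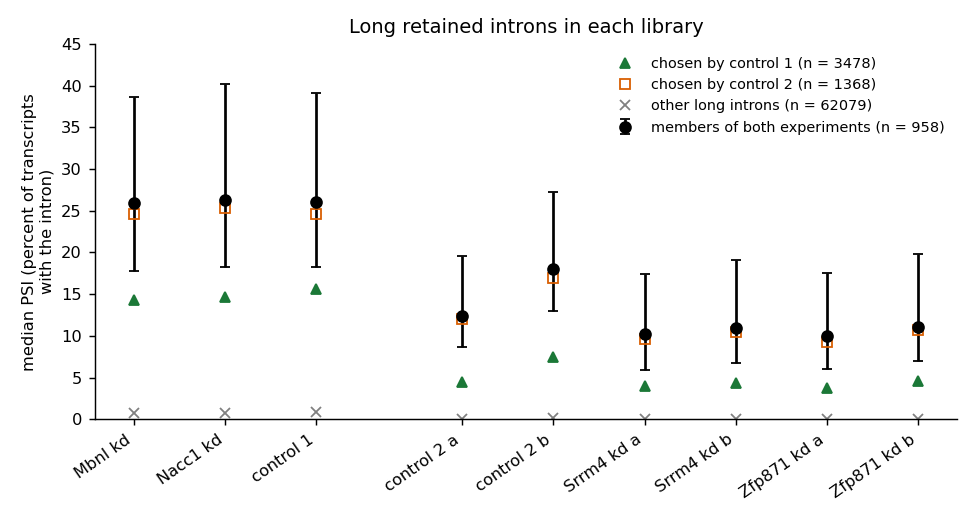
Median PSI (percent of transcripts with the intron, as estimated from border reads and reads joining the outer exons) in each of the 9 libraries. Shown are 958 introns chosen by both controls (black, bars from the lower to the upper quartile) and introns chosen by control 1 (triangles). Squares mark introns chosen by control 2, and crosses mark other long introns. The black medians lie at 25.9 to 26.3 in the first experiment and at 10 to 18 in the second, with control 2 b the highest of the second. The level in a control helped choose the introns of the black and square marks, and that in control 1 those of the triangles. A control is therefore not to be compared with its own knockdowns on the marks that it chose.

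Introns chosen in one experiment were read in the control of the other. Of 3718 introns that control 1 chose and that had 10 or more reads in both control 2 libraries, 30.5% had a mean of 10 or more there, against 3.5% of all 68620 long introns read in all 3 control libraries. Their median was 6.2 in control 2 against 15.9 in control 1. Of 1485 introns that control 2 chose, 89.4% were at 10 or more in control 1, against 8.84% of all long introns, with a median of 24.5 against 15.1. Across the 68620 introns, which share libraries and depth, the levels in the controls had a Spearman correlation of 0.74, and across the 1004 introns of both selections it was 0.69.

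Most of these introns had a PSI below 50 in the control that chose them. The control PSI had a median of 16.2 (quartiles 12.2 and 25) in the first and 15.1 (11.8 and 22.3) in the second experiment. It was 50 or more for 342 introns by control 1 and for 103 by control 2, and 90 or more for 91 and 35. Of 317 introns of both selections with at least 50 reads in every library, 104 stayed at 10 or more in all 9 libraries, 43 at 20 or more, 12 at 50 or more and 4 at 90 or more. Reads across both exon-intron borders lay behind the values: the median intron chosen by control 1 had 29 reads at its 5′ and 34 at its 3′ border, summed over the first experiment, beside 145 reads that joined the exons. In that experiment 22.7% of these introns had border reads more than 2-fold apart, and 29 had none at 1 border. For introns chosen by control 2, the share was 46.8% in the second experiment, with medians of 25 and 26 border reads.

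The introns with the highest control level were kept in most transcripts. The PSI of the Ptger1 intron (a prostaglandin E receptor gene, chr8:86190816-86191777) was 96.7, 97.4 and 97.4 in the first experiment and ran from 94.2 to 98.9 in the second. Another gene lies antisense to it. In Pja1, a ubiquitin ligase gene, the values were 96.1, 100 and 100, then 96.4 to 100. Fbxl20, an F-box gene, had 96.7, 96 and 96.3 over 1813 to 1933 reads each, and 93.4 to 97.1 in the second experiment. In these 3 introns every library was within a few points of the others. Dgkz, a diacylglycerol kinase gene, was at 95.9, 90.2 and 89.4 in the first experiment and between 63.3 and 82.1 in the second, so no library of the second reached any of the first. The other introns named for a high control level lie in Kctd17, Frmd5, Map2k7, Masp2, 2310022A10Rik, Mrps17 and Zmym6. They had 71.4 or more in every library except in Mrps17. The Mrps17 intron was at 78.5, 83.3 and 86.8 in the first experiment and between 55.6 and 69.7 in the second. In Kctd17 only 1 to 6 reads a library joined the outer exons. Exons of 75 and 88 nt lie inside that intron, at 15.7 over 262 reads and at 6.6 over 202 reads in control 1. The Kctd17 PSI therefore need not be the share of transcripts that keep the intron.

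At the threshold the choice was narrow. The lowest introns chosen by control 1, in Stard3, Sugp2 and 9330159F19Rik, had a control PSI of 10, while introns of Usp36, Gramd1b and Srrm2 with 9.98, 9.97 and 9.97 were left out. The value behind the second selection is the authors' value over both control 2 libraries, and it was above both library values for 318 of the 1490 introns and below both for 23. In 72 introns neither control 2 library reached 10. The shortest introns chosen by control 1 had 500 nt (Golga1, Khnyn, Top3b), and introns of 499 nt in Hook1, Pstk and Sfi1 were left out. The longest in both selections was an intron of Pam, a peptide amidation enzyme gene, with 118225 nt and a PSI from 10.3 to 11.1 in the first experiment and from 1.46 to 12.1 in the second. None of its 20 to 45 reads a library lay at the 5′ border, and 1 to 8 lay at the 3′ border. Of the genes, Adcy3, an adenylyl cyclase gene, held the most, with 9 of its 10 long introns chosen by control 1.

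Retained introns were shorter than other long introns, with medians of 1536 nt against 1994 nt by control 1 and 1418.5 nt against 1998 nt by control 2. Among genes with at least 3 listed introns, they were the last of the gene in 13.7% against 7.56%, and in 15.7% against 8.04% by control 2. Their length was a multiple of 3 in 34.2% against 33.6% by control 1. The host genes were at a lower level per length in control 1: the median was 10.8 cRPKM (corrected RPKM, reads per kilobase scaled to library size) for hosts by control 1 against 18.8 for other genes with long introns, and 9.54 against 17.5 by control 2. Low expression gives fewer reads, and its part in the PSI values was not tested.

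Retained introns were set beside annotated gene structure. Introns were matched to GENCODE by gene and by the lengths of the intron and its exons, which placed 98.9% of the introns chosen by control 1 and 98.6% of those by control 2. A GENCODE transcript kept the intron in 10.1% of those by control 1, against 2.06% of other long introns. By control 2 the shares were 13.4% and 2.28%, and among introns of both selections the share was 15.8%. It was 1.59% at a control 2 PSI under 1, 11.3% at 10 to 20 and 29.7% at 50 or more. An exon of the same gene began or ended inside the intron in 48.3% against 22.5% by control 1, and in 56.3% against 24.2% by control 2. By control 2 level this share was 55% at 10 to 20, 60.2% at 20 to 50 and 56.4% at 50 or more. Such exon ends include those of whole exons inside the intron, so this share overlaps that of the cassette exons below. Others are alternative starts, ends or splice sites, and a transcript that uses one can hold intron sequence at a single border. These kinds were not counted apart.

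Listed cassette exons, which are either joined in or skipped, were frequent inside these introns. The deposited tables placed at least 1 such exon inside 18.5% of the introns by control 1 and 7.36% of the others, and inside 21% and 8.02% by control 2. By control 2 level it was 20.7% at 10 to 20, 24.6% at 20 to 50 and 12.6% at 50 or more. For exons of 27 nt or fewer, the shares were 1.74% against 0.444% and 2.28% against 0.5%. An exon of another gene lay antisense in 6.15% against 4.54%, and in 7.76% against 4.68% by control 2. The sources used here do not say whether the counting used strand, so reads of such genes cannot be told apart from the intron. Coding exons flanked 92.1% of the introns by control 1 and 96.4% of the others, and the 5′ UTR held 6.05% and 3.18%.

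**Figure D2:**
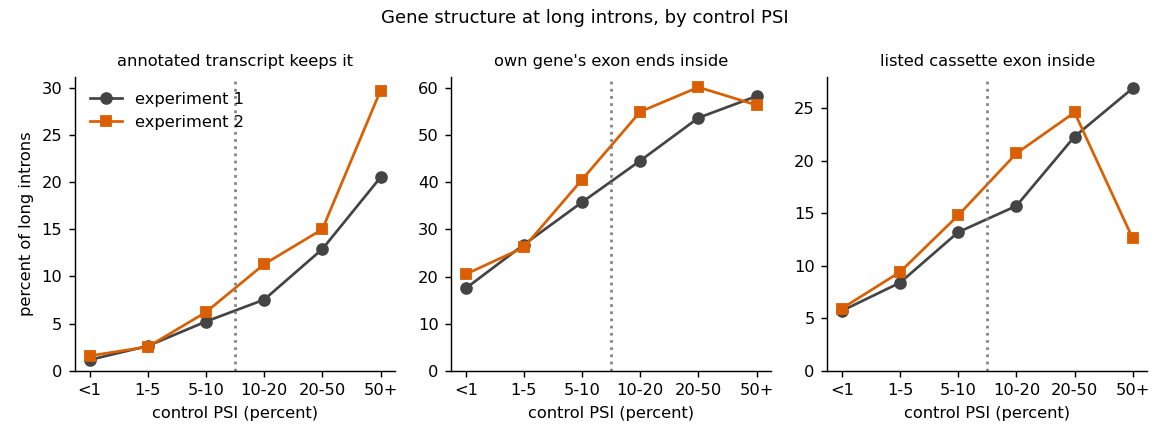
Percent of long introns (y axis) with an annotated transcript that keeps the intron, with an exon end of the same gene inside, and with a listed cassette exon inside, by control PSI (x axis), for the first (circles) and second (squares) experiment. The dotted line marks the threshold of 10. From a control PSI under 1 to one of 50 or more, the first share goes from 1.16% to 20.5% in the first and from 1.59% to 29.7% in the second experiment, while the share with a cassette exon inside ends at 26.9% in the first and at 12.6% in the second.

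Shares of retained introns in listed genes were set beside the share of all long introns. Of the long introns in 24 genes listed as known for regulated retained introns, 15.8% (25 of 158) were chosen by control 1 and 4.82% (8 of 166) by control 2, beside 6.66% and 2.35% of all long introns. For SR proteins and their relatives the shares were 9.01% (20 introns) and 4.15% (10), and for hnRNP genes 8.93% (10) and 2.99% (4). Genes of the core spliceosome were lower in the first, with 4.2% (15), and had 1.32% (5) in the second. RNA decay and 3′ end genes had 7.11% (32) and 2.28% (11), chromatin genes 3.02% (22) and 2.21% (17), DNA repair and cell cycle genes 7.4% (48) and 2.19% (15), and neuronal genes 8.88% (34) and 2.78% (11). The lists were made with earlier results of these data known, and the shares are descriptions.

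Clk4 and Clk3 encode kinases that phosphorylate SR proteins. The Clk4 intron (chr11:51085525-51086579, between coding exons) had a PSI of 37.2, 35.8 and 35.9 in the first experiment. In the second it was 9.87 and 27.1 in control 2, 21 and 12.7 in the Srrm4 knockdown, and 13.5 and 18.1 in the Zfp871 knockdown, so the libraries of control 2 enclosed all others. The Clk3 intron was at 22.2, 25.8 and 23.2, and at 17 to 29.2 in the second experiment. Ogt encodes the enzyme that adds O-linked N-acetylglucosamine to proteins. Its intron of 3415 nt was at 60.5, 61.8 and 54.3 in the first experiment and between 5.75 and 19.8 in the second, with no overlap between experiments.

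Srsf7 encodes an SR protein, and its intron holds exons of 107 and 130 nt. Its PSI was 23.5, 20.3 and 15.9 in the first experiment over 1129 to 1497 reads, then 8.69 and 13 in control 2, 9.83 and 12.2 in the Srrm4 knockdown and 10.3 and 11.1 in the Zfp871 knockdown. The hnRNP gene Hnrpdl has its retained intron in the 3′ UTR, with 34.1, 37.4 and 29.7, and 10.5 to 15.9 in the second experiment. Luc7l, Srrt, Sfswap, Rbm5 and Ccnl1, all linked to splicing, lay between 14.9 and 35.5 in the first experiment and between 4.62 and 21.3 in the second. For the spliceosome genes Prpf38b and Prpf4b the ranges were 36.1 to 48 and 10.6 to 14.1 in the first experiment, and 17.5 to 23.9 and 4.21 to 12.9 in the second. The deadenylase genes Pan2 and Pan3 had 22.1 to 28.9 and 53.5 to 63.5, then 6.63 to 15.9 and 27.1 to 51.7. Exosome genes were lower: Exosc2 had 19 to 21.5 and then 6.46 to 12.1, and Exosc5 7.46 to 12.3 and then 5.81 to 15.

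Introns in other listed genes had similar levels. The histone methyltransferase gene Whsc1 was at 50.8, 48.5 and 44, and at 20.4 to 38.8 in the second experiment. Dlg4, which encodes the postsynaptic scaffold PSD-95, held 2 retained introns on either side of an exon of 110 nt. The longer was at 31.1, 30.5 and 27.7, and at 7.35 to 19.6 in the second experiment. The targeted genes Mbnl1 and Mbnl2 held 1 and 2 introns chosen by control 1, and Nacc1, Srrm4 and Zfp871 none. The Mbnl2 intron of 8033 nt was at 37 in the Mbnl knockdown (37 reads), 15.8 in the Nacc1 knockdown and 15 in control 1. Control 1 chose this intron and its gene is a target of that knockdown, so no difference is read from these values. Its spliced reads were 17 in the Mbnl knockdown and 88 in control 1.

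**Figure D3:**
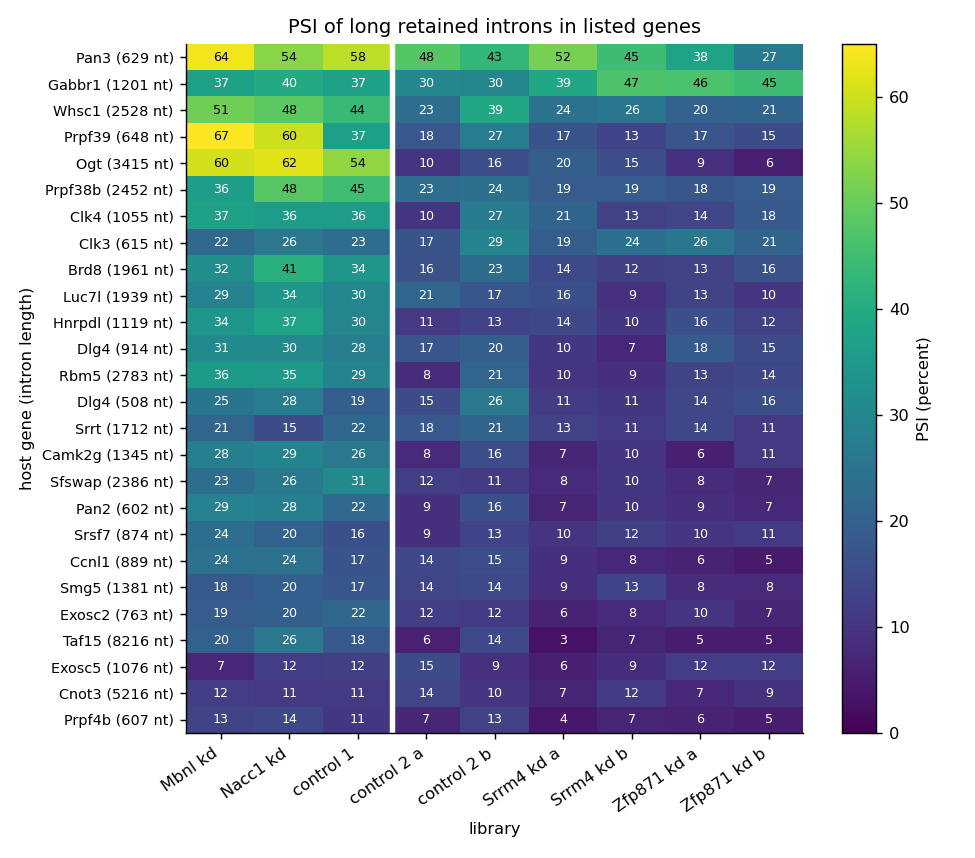
PSI in percent (colour and number) of 26 retained introns in genes of the lists, 1 row for each intron and 1 column for each library, with the white line between the experiments. For Ogt the first experiment reads 54.3 to 61.8 and the second 5.75 to 19.8, while the Exosc5, Cnot3 and Prpf4b introns are low in all 9 libraries.

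The Srrm4 knockdown was set against control 2 over the introns that control 1 chose. The limma test on PSI called no intron with all libraries, as it did on simulated data with known changes, so its 0 calls do not show that introns were alike. The shift of the whole set rested on library control 2 b. Of the 4031 introns, 3392 passed the filter on reads and PSI. The limma test called 0 of them and 0 of all 28110 introns tested (0%), at an adjusted p under 0.05 and a difference of at least 5 points, while 316 and 1698 had an unadjusted p under 0.05. The median difference was -1.64 points over the 3392 introns and -0.705 points over all introns. Without control 2 b it was -0.07 points with 1 intron called, and without control 2 a it was -2.98 points with 11 introns called. Both Srrm4 libraries were below both controls in 1087 introns and above both in 186, which is 32% and 5.48% beside 24.3% and 8.07% of all introns. Against control 2 a alone, both were lower in 37.5% and higher in 30.2%, beside 32.5% and 29.7% of all introns.

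A test of the reads themselves, the edgeR quasi-likelihood test on intron and spliced reads, called 7 of these introns lower and none higher after Srrm4 knockdown, beside 0.16% of all introns. They lie in Pacsin2, Col4a1, Pcgf6, March8, Ankrd10, Bicd2 and Sept10, with adjusted p-values by edgeR from 4.2e-09 (Col4a1) to 0.0385 (Bicd2). The limma test weighted by reads called 1, in Pacsin2, beside 0.0462% of all introns. Without control 2 b, where control 2 a is assumed to vary like the other groups, edgeR called 6 lower and 0 higher, beside 0.153% of all introns. Of the 7 introns it shared those in Pacsin2, March8 and Sept10, and the others lie in Tmub2, Zfp295 and Gnao1 (the last named after its values were seen). Weighted limma then called 0, beside 0.0178%. Pacsin2 encodes a membrane-bending protein of endocytosis, and its intron (chr15:83212314-83215416, 3103 nt) had a PSI of 11.7 and 13 in control 2, 1.93 and 2.08 in the Srrm4 knockdown and 3.56 and 4.11 in the Zfp871 knockdown. All 4 knockdown libraries were below both controls. The difference of the Srrm4 knockdown was -10.3 points, with an adjusted p of 0.727 by limma, 0.00791 by weighted limma and 2.4e-06 by edgeR. In the first experiment it was at 21.4, 24.9 and 26.9.

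This Pacsin2 intron holds an exon of 6 nt. The exon was included in 47% and 50.4% of transcripts in control 2, 10.6% and 5.67% in the Srrm4 knockdown and 19.4% and 16.6% in the Zfp871 knockdown. PSI of an intron equals the mean of its border reads over that mean plus the reads joining the outer exons directly, to within 0.02 points in 90% to 94.1% of introns, so reads joined to an exon inside enter neither count. In Pacsin2 the 5′ border had 24 and 26 reads in control 2 and 3 and 9 in the Srrm4 knockdown, and the direct junction had 189 and 201 against 355 and 448. Expression of the Pacsin2 gene had a log2 fold change of -0.04 and an adjusted p of 0.787 by edgeR.

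Further introns called by edgeR also hold an exon, which was not lower in all of them. Of the 7 called introns, 3 have an exon of 27 nt or fewer inside and 3 a longer one. Over the 3392 introns these kinds number 56 and 578. Col4a1 encodes a chain of basement membrane collagen, and its intron around a 17-nt exon was at 3.62 and 8.79 in control 2 and at 0.56 and 0.6 in the Srrm4 knockdown. The exon was at 22.3 and 28.5, then at 3.17 and 1.59. Reads joining the outer exons went from 226 and 249 to 893 and 1494, while the Col4a1 gene was 1.77 higher on the log2 scale (adjusted p 0.0184, edgeR). In the Polycomb gene Pcgf6 the intron around an 18-nt exon was at 20 and 28.4 against 10 and 5.69, and the exon at 26.7 and 19.3 against 6.31 and 3.38. The ubiquitin ligase gene March8 holds an exon of 846 nt in its intron, which was at 17.8 and 16.2 against 4.29 and 3.09, with the exon at 23.5 and 17 against 8.57 and 9.38. In Ankrd10 the 112-nt exon inside was at 12.1 and 6.79 in control 2 and at 12.4 and 8.05 in the Srrm4 knockdown. A 162-nt exon there was at 2.41 and 1.49, then at 1.45 and 1.33. The 88-nt exon inside the Bicd2 intron was at 0.83 and 0 against 0.81 and 0.32. In the septin gene Sept10, with no listed exon inside, the intron was at 40.4 and 43.9 in control 2 and at 24.7 and 20.9 in the Srrm4 knockdown, while the Zfp871 libraries had 39.5 and 43.9. Most Sept10 border reads lay at the 5′ border, with 372 and 256 in control 2 and 187 and 194 in the Srrm4 knockdown. The 3′ border had 28 and 44, then 28 and 23, so the values need not reflect the whole intron.

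Over 397 of the introns with an exon inside that could be read in all 6 libraries, the difference of the exon and that of the intron after Srrm4 knockdown had a Spearman correlation of 0.35. These points share the same libraries, and the reads joining the outer exons enter both measures. More of these reads lower both values by construction, so the correlation and the counts that follow are partly built in. Where the exon was lower by 10 points or more, the intron was lower in 44 of 48, with a median difference of -9.15 points, and where the exon differed by less than 10 points the median was -1.82 points over 340. Where the exon was higher by 10 points or more, the intron was higher in 5 of 9, with a median of 0.56 points. Of all 3392 introns, 2559 were lower. Against control 2 a alone the correlation was 0.33, the intron was lower in 45 of 56 with a median of -3.25 points where the exon was lower, and the median was 0.06 points where the exon differed less. By kind of intron, the median was -3.21 points over 56 with an exon of 27 nt or fewer inside, -1.95 over 578 with a longer one, -1.26 over 29 beside such a short exon and -1.53 over 2729 with none of these. Set against control 2 a alone, these medians were -1.37, -0.13, 0.68 and -0.02 points. This split was made after the values were seen and was not tested.

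**Figure D4:**
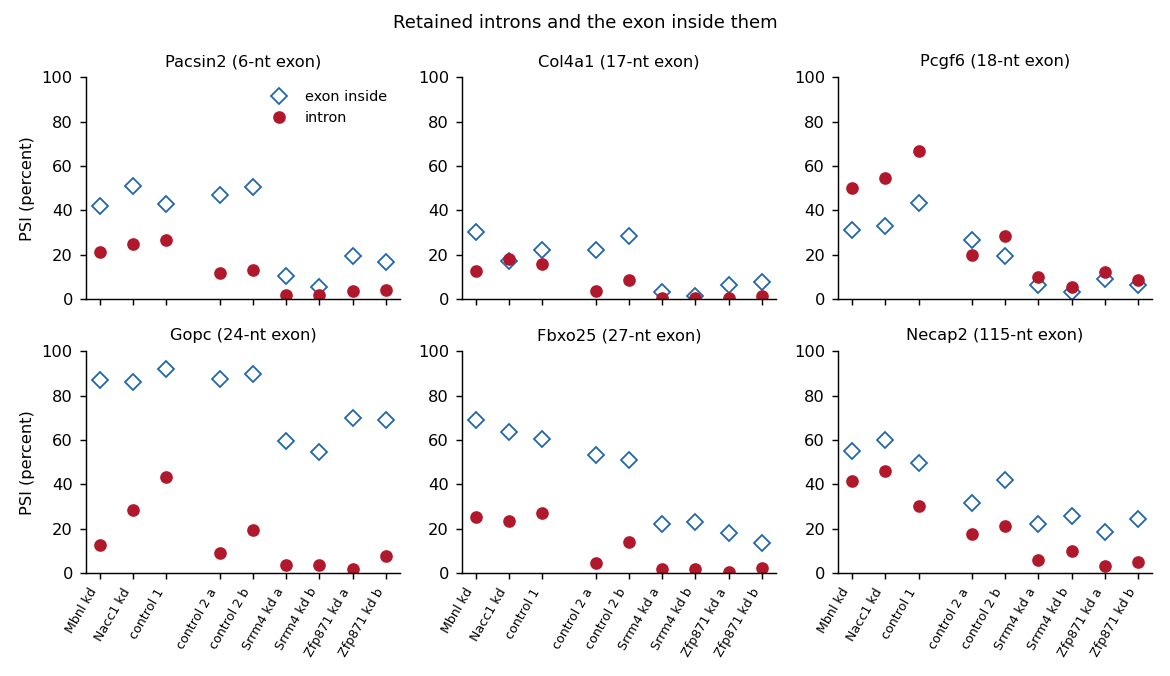
PSI in percent (y axis) of 6 retained introns (circles) and of the exon inside each (diamonds) in the 9 libraries (x axis). In Pacsin2 the exon goes from 47 and 50.4 in control 2 to 10.6 and 5.67 after Srrm4 knockdown, and the intron from 11.7 and 13 to 1.93 and 2.08. In Gopc the exon goes from 87.5 and 89.8 in control 2 to 59.5 and 54.6 after Srrm4 knockdown and to 69.9 and 69 after Zfp871 knockdown.

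Some introns that none of the 3 tests called with all libraries lay far apart between the groups, without overlap. The Tmub2 intron, in the 5′ UTR, was at 56.8 and 45.8 in control 2 and at 34.7 and 26.5 in the Srrm4 knockdown, with 45 and 50.4 in the Zfp871 libraries. Rbm15 encodes an RNA-binding protein of the m6A methylation machinery, and its intron was at 65.9 and 54.5 against 34.3 and 46.4. The Rhbdd3 intron was at 67.7 and 62.9 against 48 and 46.1, and the Zfp295 intron at 60.8 and 48.5 against 37.9 and 35.3. In Rhbdd3 the control 2 libraries had 28 and 45 reads at the 5′ border but 4 and 3 at the 3′ border.

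Gabbr1 encodes a subunit of the GABA-B receptor, and it held 2 neighbouring retained introns. They flank an exon of 21 nt, and the first also holds an exon of 40 nt that was at 2.59 to 11.5 in the 9 libraries. The first intron (chr17:37185552-37186721) was at 26.6 and 25.1 in control 2, 39.6 and 50 in the Srrm4 knockdown and 43.8 and 39.5 in the Zfp871 knockdown. The second was at 30.2 and 29.7, 39 and 46.9, and 46.3 and 44.8. In both introns all 4 knockdown libraries were above both controls, over few reads. The 5′ border of the first had 3 and 6 reads in control 2, 10 and 15 in the Srrm4 knockdown and 5 and 8 in the Zfp871 knockdown. In the second the 5′ border had 17 and 18, then 8 and 17, and 11 and 11. Reads joining its exons were 22 and 26, then 10 and 11, and 8 and 9. The lowest adjusted p of these differences by limma was 0.792. The 21-nt exon was at 90.1 and 100 in control 2 and from 84.8 to 96.9 in the knockdowns. Gabbr1 expression fell by 0.62 on the log2 scale (adjusted p 0.0308, edgeR) after Srrm4 knockdown and by 0.81 (0.0232) after Zfp871 knockdown.

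The Zfp871 knockdown was set against the same control libraries, so its values and those of the Srrm4 knockdown share them. Limma called 0 of the 3392 introns and 0 of all introns (0%), with 338 and 1742 at an unadjusted p under 0.05, and the median difference was -1.6 points beside -0.72 over all introns. It was -0.07 points with 1 call without control 2 b, and -2.91 points with 12 calls without control 2 a. The groups were apart and lower in 1070 introns (31.5%, beside 23.5% of all) and higher in 186 (5.48%, beside 7.2%). Against control 2 a alone, 37.3% were lower and 28.2% higher, beside 31.7% and 27.4% of all introns. The edgeR test on reads called 4 introns, all lower, beside 0.0818% of all introns: Pacsin2, Col4a1, Fbxo25 and Necap2, with adjusted p-values by edgeR from 0.000117 (Col4a1) to 0.0446 (Fbxo25). The weighted limma test called 0 of the set and 0.00356% of all introns. Without control 2 b, edgeR called 2 introns lower (Pacsin2 and Necap2) and 2 higher (Clcn3 among them), beside 0.114% of all introns. Weighted limma then called 0 of the set and 0% of all introns.

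Each of those 4 introns has an exon inside. The F-box gene Fbxo25 was at 4.79 and 14.3 in control 2 and at 0.73 and 2.26 in the Zfp871 knockdown, and its 27-nt exon at 53.1 and 51.2, then 18.3 and 13.5. Necap2 encodes an adaptor of clathrin coats. Its intron was at 17.6 and 21.1 against 3.09 and 5.18, and the longer of the 2 exons inside was at 31.7 and 42.2 against 18.7 and 24.6. Klc1, a kinesin light chain gene, has an intron that no test called. It was at 26.4 and 39 in control 2, 31.4 and 20.9 in the Srrm4 knockdown and 15.9 and 11.2 in the Zfp871 knockdown. A 51-nt exon inside the Klc1 intron was at 40.8 and 41.6, then 48.4 and 45.6, and 28.8 and 30.2. Reads joining the outer exons were 41 and 43 in control 2 and 55 and 84 in the Zfp871 knockdown. The next 2 introns were called by no test either. The chromatin gene Hmgn3 was at 36.8 and 33 in control 2, 30.3 and 29 with Srrm4 knockdown, and 17.5 and 20.5 with Zfp871 knockdown. Mapt, which encodes tau, was higher in the Zfp871 libraries, at 10.8 and 24.8 against 6.95 and 7.11. Both of these values rest mainly on 1 border. Hmgn3 had 49 and 45 reads at the 5′ border in control 2 and 29 and 39 in the Zfp871 knockdown, but 4 and 4, then 1 and 1, at the 3′ border. Mapt had 0 and 3, then 2 and 1, at the 5′ border, and 13 and 12, then 16 and 28, at the 3′ border.

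Compared directly, the knockdowns of Zfp871 and Srrm4 gave few calls among retained introns. This comparison does not involve the control and was read over the introns that control 2 chose. Limma called 0 of 1375 introns and 0 of all introns (0%), with 112 and 1447 at an unadjusted p under 0.05, and the median difference was 0.02 points (quartiles -2.89 and 2.99). The groups were apart and lower in 245 introns (17.8%, beside 16.5% of all) and higher in 252 (18.3%, beside 15.5%). The edgeR test on reads called 3, beside 0.0996% of all introns, and the weighted limma test 1, beside 0.0391%.

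The intron called by both of those tests was in Hspb6, which encodes a small heat shock protein. Its PSI was 80.5 and 51 with Srrm4 knockdown and 4.63 and 7 with Zfp871 knockdown, and control 2 lay between them with 35.7 and 32.7. The difference was -59.9 points, with an adjusted p of 0.00287 by weighted limma, 2.9e-05 by edgeR and 0.368 by limma. Between 15 and 84 reads lay behind each value. Reads joining the exons were 2 and 7 in the Srrm4 and 40 and 71 in the Zfp871 knockdown, while border reads were 2 to 9 in all of them. Hspb6 expression was 1.4 higher on the log2 scale in the Zfp871 than in the Srrm4 knockdown (adjusted p 0.00888, edgeR).

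By edgeR, the introns of Map2k7, a kinase gene of the JNK pathway, and Clcn3, a chloride transporter gene, were also called. Map2k7 was at 97.3 and 95.9 with Srrm4 knockdown and at 89.5 and 92.5 with Zfp871 knockdown (adjusted p 0.0193, edgeR). Clcn3 was at 9.14 and 10 against 22.4 and 37 (adjusted p 0.00291, edgeR), and control 2 had 11.4 and 28.9. No test called the next 3 introns in this comparison. In Bicd2, a dynein adaptor gene, the values were 16.8 and 17 against 27.1 and 39.2, with 29 and 38 in control 2. Slc25a37, a mitochondrial iron carrier gene, was at 55.3 and 49.6 against 30 and 26.4. The kinase gene Braf was at 42.5 and 46.6 against 66.7 and 58.4.

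In the first experiment each condition is 1 library, so differences have no replicate check. An intron was counted when all 3 libraries had at least 20 reads, the difference was at least 10 points, and the 95% exact (Clopper-Pearson) intervals did not overlap. These intervals cover counting error only. Of 1352 introns that control 2 chose, 17 were lower (1.26%) and 22 higher (1.63%) in the Mbnl knockdown than in control 1, beside 0.11% and 0.14% of all 90996 introns, or 2.88% beside 0.249% in either direction. In the Nacc1 knockdown 17 were lower (1.26%) and 26 higher (1.92%), beside 0.1% and 0.196%, or 3.18% beside 0.296%. In the Nacc1 against the Mbnl knockdown 16 were lower (1.18%) and 10 higher (0.74%), beside 0.109% and 0.144%, or 1.92% beside 0.253%. Most introns of the whole table lie near 0 and can hardly differ by 10 points. The median difference over the 1352 introns was -0.35, -0.01 and 0.345 points.

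Listed exons were again frequent inside the introns that differed. Of the 39 introns past the rule in the Mbnl knockdown, 51.3% had an exon inside, beside 21.7% of the 1352, and for Nacc1 the share was 37.2% of 43. For Nacc1 against Mbnl it was 30.8% of 26. Here too the reads joining the outer exons enter the values of both intron and exon. Arhgap33, a GTPase activator gene, was at 20.6 (95% interval 16.3 to 25.8) in the Mbnl knockdown, 19.6 (15.7 to 23.9) in the Nacc1 knockdown and 46.7 (39.1 to 54.2) in control 1. The 212-nt exon inside was at 11.6, 10.2 and 55.5. Smpd4, a sphingomyelinase gene, was at 11.6, 17.6 and 44.5, and its 87-nt exon at 27.6, 24.4 and 67.1. Tmem87b was higher in both knockdowns, at 76.5 and 91.1 against 45.8, as was its 72-nt exon, at 87.2 and 94.8 against 57.2.

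Dot1l encodes the methyltransferase for lysine in the core of histone H3, and its intron was at 55.4 (49.3 to 61.6) in the Mbnl knockdown alone, against 28 (22.9 to 33.4) and 25.4 (20.8 to 30.6). The 631-nt exon inside was at 40.4, 21.1 and 12.3. The spliceosome gene Prpf39 was at 67.2 (59.1 to 74), 60 (52.6 to 67.5) and 36.8 (29.4 to 44), with exons of 69 and 163 nt inside that were also highest in the Mbnl knockdown, at 40.2 and 62. Prune2 was at 74.2, 69 and 37.1. Its downstream neighbour is a 36-nt exon, which was at 6.1, 7.11 and 30.7, and reads joining the flanking exons were 12, 16 and 93.

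Some of the widest differences were in introns with no listed exon inside. Med22, a Mediator subunit gene, was at 30.7 (25 to 36.5) and 37.9 (32.9 to 42.8) in the knockdowns and 62.3 (56.5 to 67.8) in control 1. In the second experiment all 6 libraries had 53.8 to 61.9. Vav2, a guanine nucleotide exchange factor gene, was at 36.7, 72.7 and 89.7 over 37 to 41 reads. An 87-nt exon beside the Vav2 intron was at 12.6, 3.07 and 3.19 in the same order, and reads joining the flanking exons were 19, 6 and 2. Slit3, an axon guidance gene, passed the rule between the knockdowns, at 41.9, 13.8 and 27.1, so that control 1 lay between them. Tpm1, a tropomyosin gene, also passed it there, at 46.1 in the Mbnl knockdown against 66.7 in the Nacc1 knockdown and in control 1. A 79-nt exon beside the Tpm1 intron was at 37.8, 8.44 and 5.49, and reads joining the flanking exons were 55, 15 and 18. Ankrd26, which has an exon inside, was at 12.3, 65.3 and 9.98, and the 56-nt exon was at 3.57, 8.58 and 4.75. The Ankrd26 values rest on 8, 13 and 6 reads at the 5′ border and on 0, 3 and 0 at the 3′ border, beside 18, 8 and 17 spliced reads.

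**Figure D5:**
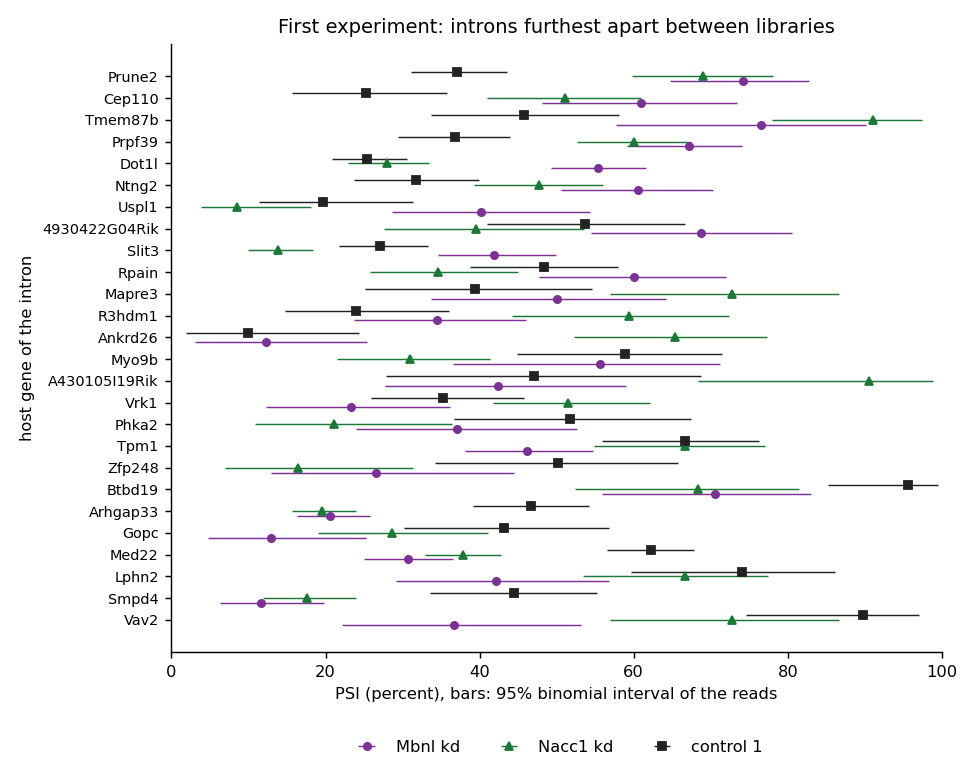
PSI in percent (x axis) in the 3 libraries of the first experiment for the introns past the size rule that are furthest apart (y axis, host gene), with 95% exact binomial intervals of the reads as bars. Med22 lies at 62.3 in control 1 and at 30.7 and 37.9 in the knockdowns, and Dot1l at 55.4 in the Mbnl knockdown alone.

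The authors' deposited table flags differential introns by a rule that is not stated. Among introns chosen by the control of the same experiment it flagged 273 (Mbnl) and 291 (Nacc1) of 4031, and 38 (Srrm4) and 28 (Zfp871) of 1490. Over all introns with a value, the authors' deposited table flagged 0.653%, 0.758%, 0.0861% and 0.0476%. The choice of introns used the same control, so nothing is read from these counts.

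Expression of the host genes was compared with that of all genes. Of 2581 host genes of introns chosen by control 1, edgeR called 76 lower and 37 higher after Srrm4 knockdown, 2.94% and 1.43% beside 3.29% and 1.41% of all 12378 genes. After Zfp871 knockdown it called 76 lower and 12 higher, 2.94% and 0.465% beside 2.14% and 0.751%. Between the knockdowns, 62 host genes of introns chosen by control 2 were lower and 50 higher in the Zfp871 libraries, 5.3% and 4.27% beside 5.57% and 5.53%. In gene counts the libraries with the same letter differed from their groups together, with a correlation over 12378 genes of the a minus b difference from 0.637 to 0.749 between groups. With the letter as a replicate block, edgeR called 38.9%, 31.5% and 42.6% of the host genes in these 3 comparisons, beside 36.9%, 31.1% and 41.9% of all genes. What libraries with the same letter share is not stated in the labels. Without the block the number of calls varied with the libraries in the fit. Leaving out any 1 library lowered the 113 calls for Srrm4 against control 2, the 88 for Zfp871 and the 112 between the knockdowns. This was so also for libraries outside a comparison, such as the Zfp871 libraries for Srrm4 against control 2. The drop can therefore not be assigned to single libraries.
In the first experiment, of 1165 host genes by control 2, 1 was lower and 1 higher by a log2 change of at least 1 in the Mbnl knockdown (0.0858% each, beside 0.259% and 0.758% of all genes). In the Nacc1 knockdown 24 were lower and 3 higher, 2.06% and 0.258% beside 2.97% and 0.406%. Nacc1 against Mbnl gave 32 lower (2.75%) and 0 higher, beside 4.22% and 0.509%.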

How the data were processed

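Per the series design text, vast-tools quantified splicing; neither its version nor an aligner is recorded in these sources, and the submitters' processing notes name mm9, CASAVA 1.8 and edgeR. PSI is in percent as the authors deposited it for the first experiment and for the choice of introns, and beside it a text cell per library gives the reads of each event; for the libraries of the second experiment PSI was computed from those inclusion and exclusion reads. Gene tables of raw counts (both experiments) and cRPKM (an RPKM corrected by the authors, used for the first) were deposited, per the file headers. In the first experiment every value the authors kept had at least 15 reads. Gene counts were tested with edgeR 4.0.16 (quasi-likelihood, TMM) under R 4.3.3, and log2 changes of the first experiment used a prior count of 2. Intron PSI was tested with limma 3.58.1 (eBayes with trend) on the log2 ratio of PSI to its complement to 100, with 1 point added to each, for introns with 10 reads in all 6 libraries and a PSI of 2 to 98 in 1 or more. All p-values were Benjamini-Hochberg adjusted over all features tested. On simulated data the limma test recovered signs and sizes but made no calls; the weighted and edgeR tests made calls. Named introns followed a rule: the 10 highest, up to 8 called or otherwise the 5 widest non-overlapping a direction, up to 5 a direction past the size rule, the 3 longest, those at the thresholds, up to 6 a gene list, and those in targeted genes; 1 intron that this rule names is not reported here. Members, lists and rules were chosen with earlier results of these data known. Not used were 17 columns of per-library or mean values.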

Additional observations from a re-analysis of the deposited data

How the results depend on the processing

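Depth limits single introns: the median intron chosen by control 2 had 37.5 reads a library. With control 2 as the reference, the 0 calls for Srrm4 became 7 by edgeR on reads and 1 by limma weighted by reads, and 0 to 11 when leaving out 1 library; for Zfp871 they became 4 by edgeR and 0 to 12. EdgeR without control 2 b called 6 and 4, and weighted limma without it 0 and 0. The weighted test and the last 2 settings were chosen after seeing the data. The median of -1.64 points (Srrm4) ran from -2.98 to -0.07 and that of -1.60 (Zfp871) from -2.91 to -0.07 when leaving out 1 library; it was -2.96 and -3.11 at a control PSI of 20 or more, and -0.57 and -0.56 with libraries centred on the median of all introns (chosen after seeing the data). For Zfp871 against Srrm4, the 0 calls became 3 by edgeR and 1 by weighted limma. Other offsets, read minima, lengths, differences, the balance filter and the 4 compared libraries alone left these counts within the stated bounds. The a minus b differences of the groups correlated at 0.136, 0.14 and 0.092 over introns, and the labels tie nothing to a letter. Fits with a replicate block by column letter gave 0 intron calls in each contrast, and called 38.9%, 31.5% and 42.6% of the host genes (1004, 814 and 499; Srrm4, Zfp871, Zfp871 against Srrm4) in place of 4.38%, 3.41% and 9.57% (113, 88 and 112). DESeq2 1.42.0 called 15.6%, 11.4% and 19%, and the 4 libraries alone 0% and 1.71% for Srrm4 and Zfp871. Leaving out 1 library gave 0% to 1.47%, 0% to 1.98% and 0% to 8.63%. In the first experiment the percent past the size rule for Mbnl, Nacc1 and Nacc1 against Mbnl (2.88, 3.18 and 1.92) was 4.28, 4.28 and 2.89 with at least 50 reads, and 1.78, 1.92 and 0.888 with a difference of at least 20 points; at a control PSI of 20 or more it was 5.17 for Mbnl and 5.17 for Nacc1. Introns of control 1 at 10 or more in control 2 (30.5%) were 24.2% with at least 50 reads, 68.5% at a control PSI of 20 or more and 27.6% at a length of 1000 or more. Introns of control 2 at 10 or more in control 1 (89.4%) were 98.4% with at least 50 reads and 98.4% at a control PSI of 20 or more. The cause of these differences was not tested. Of 835 alternative values for 42 differences of named introns, 812 kept their direction and side of the threshold, 23 passed it in addition and 0 reversed. Limma with all libraries called no intron, so a difference tested by it could not lose a call, and these counts do not measure stability.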
